A study of Homo sapiens with 8 samples.

Results

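HCT116 is an established human colorectal carcinoma line of epithelial origin. The response described here is that of HCT116 cells to Z325, the name used for ZINC000101867325, a compound selected by docking to the kinase domains of the fibroblast growth factor receptors (FGFRs). The members were chosen by label, as the 4 HCT116 libraries among the 8 libraries of the series: 2 named Control and 2 named Test, the treated cells. The other 4 libraries are from the NCI-H716 line. No vehicle, dose or treatment time for the sequenced HCT116 cells is given in the labels, and no allele or transgene separates the groups, so treatment is the only labelled difference. The study describes 2 biological duplicates. About 100 cells went into each reaction, and full-length cDNA was amplified without molecular identifiers, so counting intervals cover counting error only.

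Reads were counted for 28043 genes, listed for all of chromosomes 1 to 8 and the start of chromosome 9, and the rest of the genome was not analysed here. Totals over these genes were 13339282 and 13183792 counts in Control 1 and 2 and 13396225 and 3434620 in Z325 replicates 1 and 2, so the second Z325 library was 3.90 times shallower than the first. Genes with at least 1 count numbered 8353 in that library and 9501 to 11248 in the other 3. The epithelial marker *EPCAM* had 19695, 21581, 21139 and 5665 counts in the order Control 1, Control 2, Z325 1, Z325 2, whereas *PTPRC*, which marks leukocytes, and *COL1A2*, a fibroblast collagen, had at most 8 counts in any library. Of the epithelial list, *VIL1*, *CDX1* and *CLDN1* had at most 6 counts per library, and *DSP* had 1939, 1505, 947 and 342 in the same order. Some markers of other cell types had more counts than *PTPRC* and *COL1A2*. *TWIST1* and *COL5A2* of the fibroblast list had 39, 59, 18 and 6 and 12, 8, 16 and 7. *CD8A* of the immune list had 14, 6, 2 and 6, and *SCG2* of a neuroendocrine list had 284, 294, 187 and 62. In bulk RNA, fewer cells of a kind and less RNA per cell cannot be told apart.

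The transcription factor NRF2 drives the genes that import cystine, make glutathione and regenerate NADPH, which together buffer oxidants and reactive compounds. ATF4 drives amino acid synthesis and transport genes when translation initiation is restrained. Before division, cells copy DNA from licensed origins with the MCM helicase and then separate chromosomes with kinases, kinesins and the chromosomal passenger complex, and many of the mitotic genes share CHR and CCAAT promoter elements.

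Promoters are shown for a pair of genes that were higher after Z325 and a pair that were lower, because the lists they belong to hold the motif in capitals more often than the tested genes at large. The windows run from 250 bases before to 50 bases after the RefSeq start in GRCh38.p14, and are written 5′ to 3′ on the gene's strand. In *GCLM* (chr1:93909381-93909680, minus strand) and *ME1* (chr6:83431002-83431301, minus strand) the capitals mark the core of the antioxidant response element bound by NRF2, TGACNNNGC on either strand. In *CDCA8* (chr1:37692266-37692565, plus strand) and *CDC20* (chr1:43358731-43359030, plus strand) they mark the CHR element, TTTGAA on either strand.
GCLM: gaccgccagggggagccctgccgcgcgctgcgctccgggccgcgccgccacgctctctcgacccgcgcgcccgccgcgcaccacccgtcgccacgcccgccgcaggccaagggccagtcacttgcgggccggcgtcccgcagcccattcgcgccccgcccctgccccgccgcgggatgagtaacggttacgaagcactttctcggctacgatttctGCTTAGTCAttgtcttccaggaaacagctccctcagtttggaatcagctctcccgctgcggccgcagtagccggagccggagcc
ME1: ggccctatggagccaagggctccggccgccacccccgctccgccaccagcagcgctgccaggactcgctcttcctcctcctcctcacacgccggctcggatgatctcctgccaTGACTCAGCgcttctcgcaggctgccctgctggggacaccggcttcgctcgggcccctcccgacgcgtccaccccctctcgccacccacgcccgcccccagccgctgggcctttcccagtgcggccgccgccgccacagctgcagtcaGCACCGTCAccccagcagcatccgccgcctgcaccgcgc
CDCA8: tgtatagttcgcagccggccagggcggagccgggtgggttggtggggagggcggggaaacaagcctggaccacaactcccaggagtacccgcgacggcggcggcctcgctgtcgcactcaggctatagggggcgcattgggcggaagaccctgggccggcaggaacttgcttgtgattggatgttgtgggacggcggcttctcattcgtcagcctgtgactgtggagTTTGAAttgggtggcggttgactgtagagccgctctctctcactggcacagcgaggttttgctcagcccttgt
CDC20: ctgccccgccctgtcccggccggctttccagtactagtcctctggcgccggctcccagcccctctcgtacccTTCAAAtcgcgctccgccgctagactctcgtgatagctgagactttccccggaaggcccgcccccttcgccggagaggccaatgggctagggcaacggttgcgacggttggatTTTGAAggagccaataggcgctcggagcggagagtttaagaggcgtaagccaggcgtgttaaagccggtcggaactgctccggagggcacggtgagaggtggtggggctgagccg
The match in *GCLM* began 34 bases before the start. The matches in *ME1* began 137 bases before and 12 bases after it, and the upstream one overlaps an AP-1 site, TGACTCA. The match in *CDCA8* began 23 bases before the start and those in *CDC20* 178 and 65 bases before it.

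Of the 28043 genes, 6491 had enough counts to be tested in edgeR, and 375 of them (5.78%) differed between Z325 and control at an adjusted p under 0.05. Of these, 184 genes (2.83% of those tested) were higher and 191 (2.94%) lower, against a median log2 fold change of −0.03 over all tested genes. The median called rise was 1.85-fold, and the median called fall was to 0.477 of control. A log2 change beyond 1 was seen in 73 of the higher and 108 of the lower genes, and a change beyond 2 in 18 and 14. In all 375 genes both Z325 libraries lay on the same side of both controls, as they did in 53.8% of all genes tested. Both lay above in 24.8% and both below in 29.0% of all genes tested. Called genes were well expressed, with a median of 199.4 CPM (counts scaled to a common library size with TMM) for the higher and 104.5 CPM for the lower genes against 17.5 CPM for all tested.

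**Figure D1:**
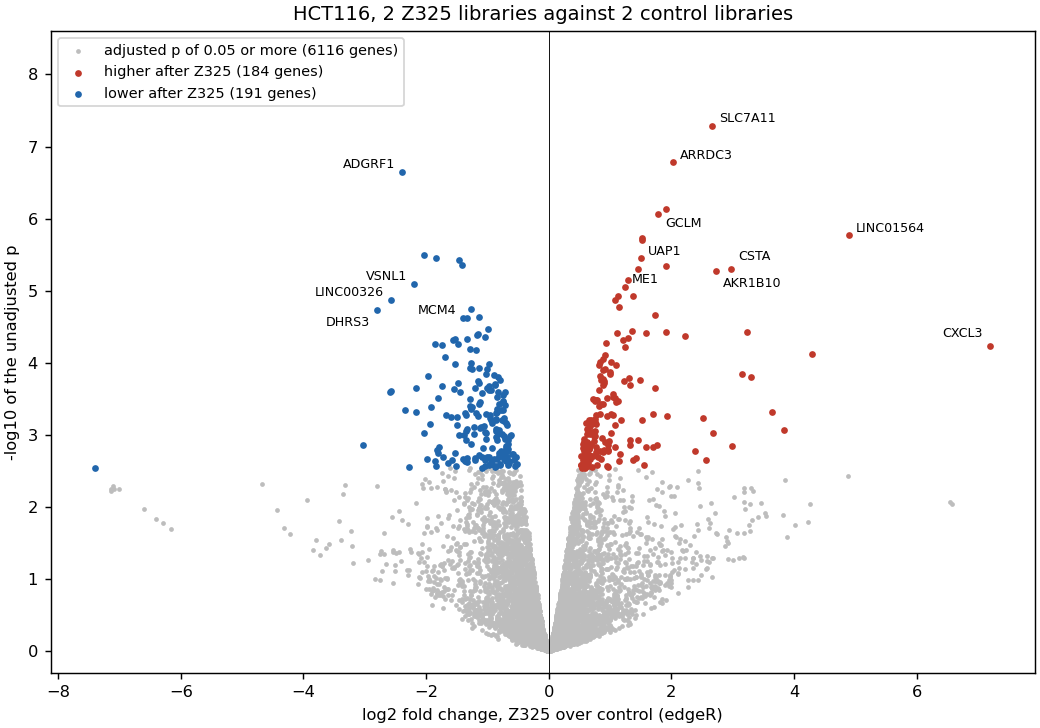
Log2 fold change (x axis, Z325 over control) against −log10 of the unadjusted p from edgeR (y axis) for the 6491 genes tested, each point a gene. Red points are the 184 genes called higher and blue points the 191 called lower; *SLC7A11*, *ARRDC3* and *ADGRF1* sit highest.

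The number of calls depended on which libraries were used. Without Control 1 there were 15 higher and 29 lower, and without Control 2 there were 17 and 6. Without Z325 replicate 1 there were 438 and 533, and without the shallow Z325 replicate 2 there were 514 and 562. With a single library in a group, that library is assumed to vary like the others. All 375 genes kept their direction in each of these fits. Their groups did not overlap, so leaving out 1 library could hardly have reversed a direction. Some of them were called in all 4 fits. Of the higher genes these were *SLC7A11*, *GCLM*, *ME1*, *AKR1B10*, *UAP1*, *DNAJB4*, *CSTA*, *ARRDC3*, *UPP1*, *SMIM14*, *TUBE1*, *LINC01564*, *ASPH* and *PACC1*. The lower ones were *ADGRF1*, *MTUS1*, *CDCA8*, *PRKACB*, *RGS2* and *SOX4*.

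The direction of change moved with the GC content of the exons. Tested genes were split into 5 equal bins of GC. In the lowest bin (median 38.7%) 68 genes were higher and 17 lower, and in the highest bin (median 58.0%) 8 were higher and 58 lower. The median log2 fold changes of these bins were 0.14 and −0.39. The controls also differed from each other along GC, with a median log2 ratio of Control 2 to Control 1 from −0.08 in the lowest bin to 0.22 in the highest, and the Z325 libraries from −0.05 to 0.07. With offsets that remove the GC trend from each library, added after the data were seen, 213 genes were higher and 186 lower, 296 of them among the 375, and the lowest and highest bins held 38 and 40 higher against 37 and 31 lower. The part of GC content in the result was not tested further. By chromosome, chromosome 1 held 33 higher and 60 lower genes (GC-corrected 39 and 44) and chromosome 4 held 24 and 10 (21 and 12).

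*SLC7A11*, the cystine importer that feeds glutathione synthesis (chr4:138164097-138242349), had 136.0 and 118.3 CPM in the controls and 745.3 and 858.3 CPM after Z325. It was 6.30-fold higher, a log2 fold change of 2.66 ± 0.15 (standard error, n = 2 per group, adjusted p = 0.000331 from edgeR), although 8.97% of its exon bases are shared with *SLC7A11-AS1* on the other strand. *GCLM*, the modifier subunit of glutamate-cysteine ligase, which catalyses the limiting step of glutathione synthesis, had 173.3 and 173.6 CPM in the controls and 545.5 and 653.2 CPM after Z325. Its log2 fold change was 1.79 ± 0.14 (adjusted p = 0.00113, edgeR), and its promoter is printed above. The catalytic subunit *GCLC*, named after its values were seen, went from 46.8 and 44.1 CPM to 126.5 and 177.3 CPM, a log2 fold change of 1.73 ± 0.21 (adjusted p = 0.00498, edgeR), with 9.68% of its exon bases shared with another gene. In these 3 genes the lowest Z325 library was above the highest control.

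Of the NRF2 target list, 18 of 51 members were tested, 6 were higher (33.3%, against 2.83% of all tested genes) and 0 lower. The median log2 fold change was 0.35 (0.57 with GC correction, 0.21 without Z325 replicate 2) against −0.03 over all genes. *ME1*, which makes NADPH from malate, rose from 199.7 and 225.1 CPM to 492.3 and 514.2 CPM, a log2 fold change of 1.24 ± 0.13 (adjusted p = 0.00288, edgeR). *AKR1B10*, a reductase of reactive aldehydes, rose from 7.02 and 8.44 CPM to 56.4 and 45.8 CPM, a log2 fold change of 2.73 ± 0.27 (adjusted p = 0.00202, edgeR), but its paralog *AKR1B15* is close in sequence and reads may be split between them. *NQO2*, a quinone reductase, was the sixth, with a log2 fold change of 0.62 and 12.04% of its exon bases shared with *LINC01011*. Of the glutathione members 3 of 5 tested were higher, of quinone and carbonyl reduction 2 of 4 and of NADPH supply 1 of 4. *TKT*, of the pentose phosphate pathway, had a log2 fold change of −0.49 (−0.10 with GC correction) with no call. *SQSTM1*, an autophagy receptor, had 0.362 and 1.15 CPM in the controls and 11.6 and 1.43 CPM after Z325, so its log2 fold change of 3.19 was not called (adjusted p = 0.0852, edgeR). It was 0.91 without Z325 replicate 1 and was called with GC correction (3.66, adjusted p = 0.0425, edgeR), and 22.4% of its exon bases are shared with *MRNIP*. Without Control 1 or without Control 2, 4 members of the list were called, and without Z325 replicate 1 or 2 there were 6 and 7.

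The glutathione S-transferases, which attach glutathione to substrates, gave 0 calls among 7 tested. Of these, 1 had both Z325 libraries above both controls (24.8% of all tested genes) and 4 had both below (29.0% of all tested genes). The median was −0.68 (−0.38 with GC correction). It was −0.97 without Z325 replicate 1 and −0.31 without Z325 replicate 2. *MGST3* and *GSTK1*, the most abundant, had log2 fold changes of 0.40 and −0.29. Of the iron and ferroptosis list, 10 of 39 members were tested, among them 2 of its 17 lipid peroxidation genes. *SLC7A11*, *GCLM* and *GCLC* were not among these 10. The list had a median of −0.18 (−0.17 with GC correction and −0.32 without Z325 replicate 2) and 0 calls. *CISD2*, an iron-sulphur protein, was at 0.45 and *VDAC3*, a mitochondrial channel, at −0.38. At an unadjusted p under 0.05 in edgeR 3 transferases and 4 iron and ferroptosis genes differed, and DESeq2 called 0 and 2 (higher).

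The hexosamine and UDP-sugar pathways make the building blocks of glycans. Of their 13 genes tested, 4 were higher (30.8%, against 2.83% of all tested genes) and 0 lower. *UAP1*, which makes UDP-N-acetylglucosamine, rose from 445.4 and 504.6 CPM to 1460 and 1236 CPM, a log2 fold change of 1.51 ± 0.14 (adjusted p = 0.00202, edgeR). *GFPT1*, which starts the hexosamine pathway, rose from 91.3 and 89.7 CPM to 134.8 and 181.3 CPM, and *PGM3*, which acts between them, from 228.1 and 242.0 CPM to 354.8 and 326.6 CPM. Their log2 fold changes were 0.80 and 0.54. *UGDH*, which turns UDP-glucose into UDP-glucuronate, rose from 234.9 and 279.4 CPM to 463.2 and 483.0 CPM, a log2 fold change of 0.88, with 12.7% of its exon bases shared with its antisense gene. The list median was nevertheless −0.21 (−0.09 with GC correction, −0.05 without Control 2), and 8 members had negative values, among them *UGP2* at −0.21 and *PGM1* at −0.44, which make UDP-glucose and its precursor and were not called. With GC correction 2 of the 4 stayed called, *UAP1* and *UGDH*. Without Control 1 or without Control 2 the call was left in 1 member.

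The ATF4 list holds amino acid and stress genes. Of 10 tested, 9 had positive log2 fold changes and 4 were called, all higher (40%, against 2.83% of all tested genes). The median was 0.63 (0.83 with GC correction). *STC2*, a secreted stress glycoprotein, had 22.5 and 21.6 CPM in the controls and 49.6 and 49.8 CPM after Z325, a log2 fold change of 1.17 ± 0.22 (adjusted p = 0.0233, edgeR). *CTH*, which makes cysteine by transsulfuration, rose from 42.1 and 34.6 CPM to 78.8 and 71.05 CPM, and *MTHFD2*, a mitochondrial folate enzyme, from 543.5 and 525.2 CPM to 830.2 and 769.5 CPM, log2 fold changes of 0.97 and 0.58. The fourth was *SLC7A11*, which both lists hold. *ASNS*, which makes asparagine and is a common ATF4 marker, had a log2 fold change of −0.10 ± 1.12 with no call, and 49.3% of its exon bases are shared with another gene. Without Control 1 or without Control 2 the call was left in 1 member, and without either Z325 library there were 5.

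The cytosolic aminoacyl-tRNA synthetases, which charge tRNAs, had 3 higher (21.4%, against 2.83% of all tested genes) and 0 lower among 14 tested. Their median was 0.25 (0.24 with GC correction, 0.16 without Control 1). *SARS1* rose from 494.6 and 617.6 CPM to 826.2 and 885.2 CPM, and *GARS1* from 339.4 and 416.7 CPM to 569.5 and 630.3 CPM, log2 fold changes of 0.62 ± 0.14 and 0.67 ± 0.15. *AIMP1*, a scaffold of the synthetase complex, rose by 0.60 on the log2 scale, and its call was lost with GC correction (0.48). None of the 3 was called without Control 1 or without Control 2.

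Chaperone lists gave 1 call each. *DNAJB4*, a cytosolic co-chaperone, had 173.7 and 160.4 CPM in the controls and 501.6 and 458.4 CPM after Z325, a log2 fold change of 1.52 ± 0.13 (adjusted p = 0.0016, edgeR). *DNAJB9*, a co-chaperone of the endoplasmic reticulum, went from 76.9 and 78.4 CPM to 159.9 and 151.6 CPM, a log2 fold change of 1.01 ± 0.15 (adjusted p = 0.0124, edgeR). They were the only called members of 11 tested heat shock genes (median 0.21) and 14 tested ER chaperone genes (median 0.18). The shares called higher were 9.09% and 7.14%, against 2.83% of all tested genes. The GC-corrected medians were 0.18 and 0.22. Without Control 1 the medians were 0.12 and −0.06, and without Z325 replicates 1 and 2 that of the ER list was 0.10 and 0.055.

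Among the largest rises, several encode proteins outside these lists. *CSTA*, a cysteine protease inhibitor of epithelia, had 5.13 and 6.29 CPM in the controls and 49.97 and 39.0 CPM after Z325, a log2 fold change of 2.97 ± 0.29 (adjusted p = 0.00202, edgeR). *ARRDC3*, an arrestin that directs membrane proteins to degradation, had 131.3 and 121.0 CPM and then 516.7 and 513.1 CPM, a log2 fold change of 2.03 ± 0.13 (adjusted p = 0.000486, edgeR). *UPP1*, the phosphorylase that splits uridine, had 53.4 and 74.4 CPM and then 244.5 and 239.2 CPM, a 3.78-fold rise. In each of the 3 genes the Z325 libraries were close to each other and far from the controls. *SMIM14*, a small membrane protein, rose from 74.1 and 68.9 CPM to 284.2 and 251.8 CPM. *MAP2*, a microtubule protein best known from neurons, rose from 6.22 and 7.21 CPM to 30.7 and 31.8 CPM. *TUBE1*, epsilon-tubulin of centrioles, rose from 193.1 and 213.5 CPM to 516.4 and 475.3 CPM, a log2 fold change of 1.29, and *TUBA4A*, an alpha-tubulin, fell by 1.14 on the log2 scale with 20.01% of its exon bases shared with *STK16*.

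The rises of *HBP1* and *ERMARD* were uneven between the Z325 libraries. *HBP1*, a transcriptional repressor, had 0.868 and 1.99 CPM in the controls and 7.59 and 34.95 CPM after Z325, and *ERMARD*, an endoplasmic reticulum membrane protein, had 3.69 and 3.07 CPM and then 17.3 and 44.4 CPM. Their log2 fold changes were 3.84 and 3.16, and 2.43 and 2.38 without Z325 replicate 2, the shallow library. *HBP1* also shares 18.001% of its exon bases with *COG5*, so its value is uncertain.

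Secreted factors were among the rises. *AREG*, a ligand of the epidermal growth factor receptor, had 194.7 and 193.7 CPM and then 372.2 and 370.7 CPM, a log2 fold change of 0.94 ± 0.13 (adjusted p = 0.00727, edgeR). *SPP1*, osteopontin, named after its values were seen, rose from 9.69 and 13.96 CPM to 38.006 and 41.0 CPM. *LAMB3*, a chain of laminin-332, rose from 7.30 and 6.60 CPM to 24.9 and 20.1 CPM, a log2 fold change of 1.70, whereas *LAMA2*, a chain of another laminin, fell by 1.37. The senescence list, which holds secreted factors, had 12 tested members and 2 higher (16.7%, against 2.83% of all tested genes), among them *AREG*. Its median was 0.80 (0.84 with GC correction). The median was 0.33 without Control 2, 0.47 without Z325 replicate 1 and 0.38 without Z325 replicate 2. The list of ERK output also holds *AREG*.

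*CXCL3*, a chemokine for neutrophils, had 0 and 2 counts in the controls and 84 and 68 counts after Z325. The second Z325 library was shallower, so the rise was uneven. With all 8 libraries scaled together *CXCL3* had 0 and 0.160 CPM in the HCT116 controls and 7.09 and 20.6 CPM after Z325. The ratio of summed counts, scaled by library, was 125 (95% interval 34.1 to 1045 from counting alone), and edgeR gave an adjusted p of 0.00737. *CXCL8*, a neutrophil chemokine of the same family, had 7.38 and 3.22 CPM in the controls and 14.9 and 8.31 CPM after Z325, with no call. All 6 chemokines and cytokines tested had positive log2 fold changes, with a median of 1.11, but *CXCL3* was the only one called, and its close paralogs *CXCL1* and *CXCL2* make its reads uncertain. *MYD88*, the adaptor of Toll-like receptors, went the other way, from 24.5 and 25.8 CPM to 3.91 and 8.02 CPM, a log2 fold change of −2.16 ± 0.39 (adjusted p = 0.0215, edgeR). Without Control 1 or without Control 2 neither *CXCL3* nor *MYD88* was called.

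Most called long non-coding RNAs (lncRNAs) were higher. Of 854 tested, 19 were higher and 4 lower, 2.69% in all, with a median log2 fold change of 0.27 (0.36 with GC correction), against 162 higher and 185 lower of 5081 protein-coding genes, 6.83% in all, with a median of −0.09. The positive median was not particular to lncRNAs. It was 0.38 (0.44 with GC correction) in 528 pseudogenes tested, with 3 higher and 2 lower. In the shortest of 5 equal bins of gene length it was 0.21 (0.31 with GC correction). *LINC01564* (chr6:53616471-53707024) had 0.723 and 1.46 CPM in the controls and 30.0 and 35.5 CPM after Z325, the largest rise among genes of at least 10 CPM, with a log2 fold change of 4.90 ± 0.42 (adjusted p = 0.0016, edgeR). *LINC02273* rose from 3.62 and 3.68 CPM to 29.6 and 11.5 CPM, a log2 fold change of 2.52 that was 1.63 in the fit without Z325 replicate 1.

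Other lncRNAs were named after their values were seen. *GAS5*, a host of small nucleolar RNAs, went from 498.7 and 500.3 CPM to 1202 and 962.9 CPM, a log2 fold change of 1.12 ± 0.14 (adjusted p = 0.00674, edgeR). *LINC01133* went from 1.88 and 1.304 CPM to 14.1 and 16.3 CPM and *LUCAT1*, known as a stress-responsive transcript, from 1.88 and 0.844 CPM to 9.93 and 7.45 CPM. *NMRAL2P*, a transcribed pseudogene known as an NRF2 target, went from 0.289 and 1.07 CPM to 15.5 and 11.2 CPM, but 33.9% of its exon bases are shared with another entry of the same name. Of the lncRNAs that fell, *LINC00326* went from 36.8 and 35.9 CPM to 6.57 and 5.44 CPM, 19.2% of its exon bases being shared with an opposite-strand gene, and *DANCR*, another snoRNA host, went from 139.0 and 144.3 CPM to 80.0 and 54.7 CPM, with 16.9% of its exon bases shared with a gene transcribed oppositely.

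**Figure D2:**
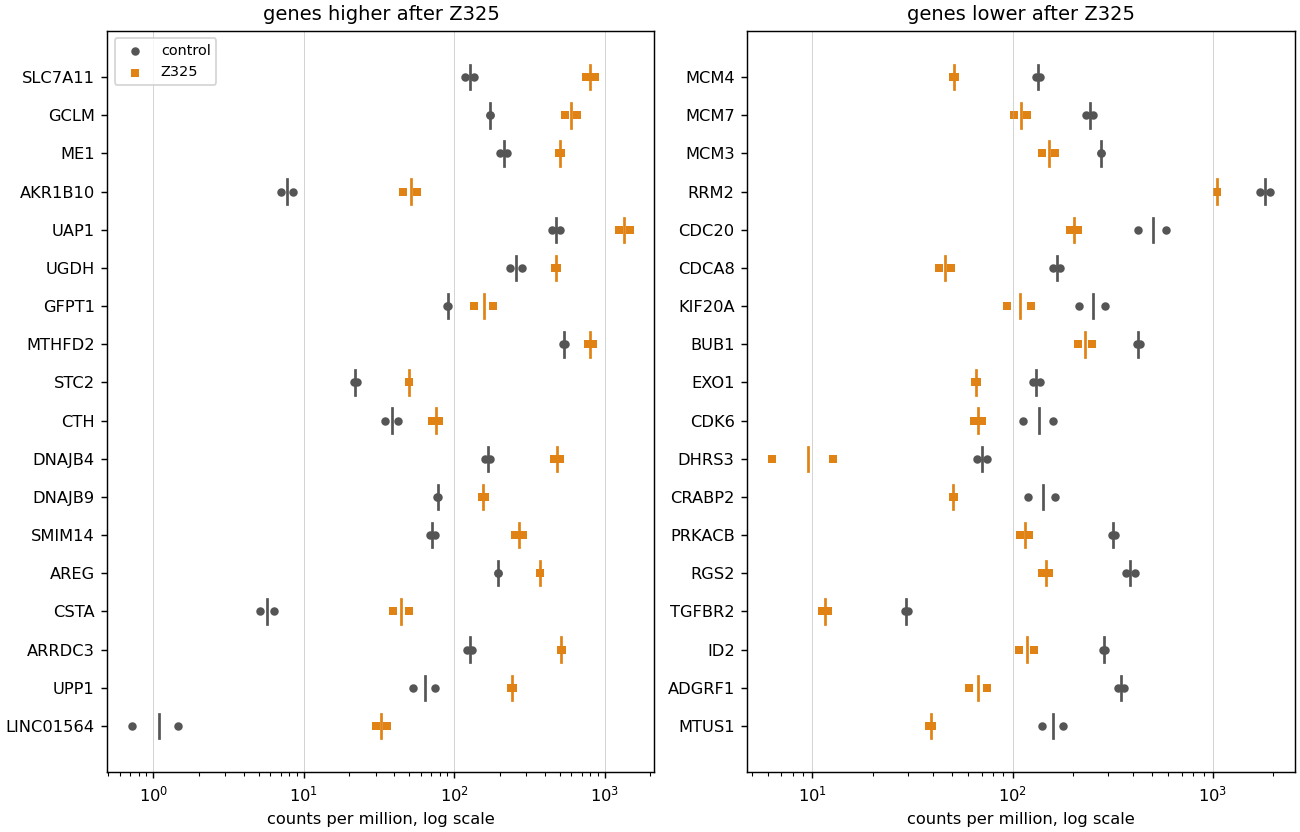
CPM in each library (x axis, log scale) for 18 genes higher and 18 genes lower after Z325, with grey circles for the 2 controls, orange squares for the 2 Z325 libraries and vertical bars for group means. In each gene both Z325 libraries lie on the same side of both controls, as in *SLC7A11* at 745.3 and 858.3 against 136.0 and 118.3.

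Of 25 tested members of the DNA replication list, 7 were lower (28%, against 2.94% of all tested genes) and 0 higher. The other 18 did not pass the test. In 17 members both Z325 libraries were below both controls, as in 29.0% of all tested genes. The median log2 fold change was −0.41 with and without GC correction. *MCM4*, a subunit of the replicative helicase, had 136.5 and 131.2 CPM in the controls and 50.3 and 51.9 CPM after Z325, a log2 fold change of −1.39 ± 0.17 (adjusted p = 0.00499, edgeR). *MCM7* had 234.0 and 252.7 CPM and then 102.1 and 118.3 CPM, and *MCM3* had 275.6 and 277.6 CPM and then 140.4 and 162.4 CPM, log2 fold changes of −1.15 and −0.87. *MCM7* shares 8.94% of its exon bases with *AP4M1*. These 3 helicase subunits thus lay between 0.381 and 0.546 of control. Of the 14 licensing genes tested, 4 were lower, these 3 and *ORC1*, and no other was called. The median of the 14 was −0.27.

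The other called members came from initiation, synthesis and nucleotide supply. *RRM2*, the regulatory subunit of ribonucleotide reductase, fell from 1723 and 1927 CPM to 1055 and 1051 CPM, a log2 fold change of −0.79 ± 0.12 (adjusted p = 0.0134, edgeR). *ORC1*, *PRIM2* and *POLD2*, of the origin recognition complex, the primase and DNA polymerase delta, had log2 fold changes of −1.34, −1.29 and −1.27. The other origin recognition genes tested, *ORC2*, *ORC3*, *ORC4* and *ORC5*, had values from −0.03 to 0.49. Most of the calls in this list were lost without Control 1 and all of them without Control 2. Without Z325 replicate 2 the calls were not all falls. The list's median ran from −0.52 without Control 1 to −0.31 without Control 2.

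Of 37 tested genes of mitosis, 13 were lower (35.1%, against 2.94% of all tested genes) and 0 higher, and 24 did not pass the test. In the list 32 had negative log2 fold changes, with a median of −0.55 with and without GC correction. Both Z325 libraries were below both controls in 25 members, as in 29.0% of all tested genes. *CDCA8*, borealin of the chromosomal passenger complex, had 158.7 and 173.1 CPM in the controls and 49.4 and 43.0 CPM after Z325, a log2 fold change of −1.84 ± 0.17 (adjusted p = 0.00202, edgeR). *CDC20*, the activator of the anaphase-promoting complex, had 423.9 and 587.3 CPM and then 193.1 and 211.1 CPM, a log2 fold change of −1.32 ± 0.17 (adjusted p = 0.00677, edgeR). *KIF20A*, a kinesin of cytokinesis, went from 215.8 and 289.8 CPM to 124.0 and 94.3 CPM, and *BUB1*, a checkpoint kinase, from 416.4 and 433.8 CPM to 211.8 and 249.0 CPM. In each of the 4 the groups were apart by more than the replicates of either group.

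By role, kinases and cyclins had 4 lower of 8 tested and all 8 below both controls, spindle and cytokinesis genes 4 of 8, kinetochore and centromere genes 3 of 14 and chromosome structure genes 2 of 7. *CCNB1*, the mitotic cyclin, was the most abundant called member and changed little, from 3569 and 4032 CPM to 2633 and 2436 CPM, a log2 fold change of −0.58. The 5 members with positive values, *CKS1B*, *CENPK*, *KIF15*, *CENPU* and *H2AZ1*, reached at most 0.39. Most of these calls were lost without Control 1 or without Control 2, and without either Z325 library the calls were not all falls. The list's median was −0.55 without Control 1 and −0.52 without Control 2. It was −0.59 without Z325 replicate 1 and −0.45 without Z325 replicate 2.

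Regulators of the G1 phase gave 2 calls among 10 tested, both lower (20%, against 2.94% of all tested genes). *CDK6*, a kinase of G1 entry, had 160.0 and 112.5 CPM in the controls and 64.4 and 70.2 CPM after Z325, a log2 fold change of −1.02 ± 0.21 (adjusted p = 0.0292, edgeR). *CDKN2C*, an inhibitor of that kinase, fell from 6.94 and 8.44 CPM to 1.88 and 2.01 CPM, with 20.4% of its exon bases shared with another gene and an adjusted p of 0.0438 from edgeR that became 0.0638 with GC correction. *CDKN1A*, the p53-driven cell cycle inhibitor, had 106.02 and 133.1 CPM and then 131.9 and 149.5 CPM, a log2 fold change of 0.23 with no call, although it was called with GC correction (0.64, adjusted p = 0.0346, edgeR). Neither *CDK6* nor *CDKN2C* was called without Control 1 or without Control 2.

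The replication-dependent histones, whose transcripts lack poly(A) tails, gave 0 calls by edgeR in 24 tested (4 at an unadjusted p under 0.05, 3 by DESeq2) with a median of −0.39 (−0.12 with GC correction). The median was −0.65 without Z325 replicate 1, −0.25 without Z325 replicate 2 and −0.14 without Control 2. In the DNA repair list 2 of 32 were lower and 1 higher (9.4% called, against 5.78% of all tested genes). *EXO1*, an exonuclease of mismatch repair and recombination, was lower at −1.01, and *XRCC4*, of end joining, was higher at 0.62. With GC correction the call of *XRCC4* was lost (0.43, adjusted p = 0.0852, edgeR). The list's median was −0.36 (−0.38 with GC correction).

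Of 38 tested genes of ribosome biogenesis, 4 were lower (10.5%, against 2.94% of all tested genes) and 0 higher. The other 34 did not pass the test. In the list 31 had negative values, with a median of −0.28 (−0.29 with GC correction). *NCL*, nucleolin, fell from 1329 and 1002 CPM to 685.3 and 687.6 CPM, a log2 fold change of −0.76 ± 0.15 (adjusted p = 0.0294, edgeR), and *POLR1B*, of RNA polymerase I, fell from 113.8 and 117.2 CPM to 69.9 and 71.3 CPM. *NOL10* and *MRTO4*, of ribosome assembly, were at −0.73 and −0.64. With GC correction *MRTO4* was at −0.36 and not called (adjusted p = 0.188, edgeR). The cytosolic ribosomal protein genes had 0 calls by edgeR among 31 tested (5 at an unadjusted p under 0.05, 1 by DESeq2) and a median of 0.12, with *RPL5* at −0.22 and *RPL7* at 0.24. That median was −0.035 without Z325 replicate 1, 0.24 without Z325 replicate 2 and 0.01 without Control 2. None of the 4 biogenesis genes was called without Control 1 or without Control 2.

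Retinoid genes held the largest fall among well expressed genes. *DHRS3*, which reduces retinal to retinol (chr1:12567910-12618210), had 66.2 and 74.2 CPM in the controls and 12.7 and 6.30 CPM after Z325, a log2 fold change of −2.80 ± 0.32 (adjusted p = 0.00438, edgeR). *CRABP2*, which carries retinoic acid to its receptor, had 119.9 and 163.2 CPM and then 50.3 and 50.7 CPM, a log2 fold change of −1.49 ± 0.20 (adjusted p = 0.00727, edgeR). They were the 2 called members of 6 tested (33.3% lower, against 2.94% of all tested genes), and the list's median was −1.02 (−0.71 with GC correction). Neither was called without Control 2.

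Genes of cyclic AMP signalling contained 3 falls (14.3%, against 2.94% of all tested genes) and 0 rises among 21 tested. The list median was 0.03 (−0.03 with GC correction) and ran from −0.18 without Z325 replicate 1 to 0.14 without Control 2. *PRKACB*, a catalytic subunit of protein kinase A, had 312.4 and 325.1 CPM in the controls and 121.5 and 108.9 CPM after Z325, a log2 fold change of −1.46 ± 0.14 (adjusted p = 0.00202, edgeR). *RGS2*, which limits G protein signalling, had 368.0 and 406.9 CPM and then 140.5 and 151.8 CPM, a log2 fold change of −1.41 ± 0.14 (adjusted p = 0.00202, edgeR). *PDE4B*, which breaks down cyclic AMP, fell from 10.9 and 15.03 CPM to 3.44 and 4.58 CPM. The first 2 stayed called whichever library was left out.

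*ADGRF1*, an adhesion G protein-coupled receptor, had 336.7 and 362.1 CPM in the controls and 60.3 and 74.2 CPM after Z325, a log2 fold change of −2.39 ± 0.16 (adjusted p = 0.000486, edgeR). *VSNL1*, a neuronal calcium sensor, fell from 176.2 and 217.7 CPM to 51.1 and 33.5 CPM, and *F2R*, the thrombin receptor, from 24.4 and 20.6 CPM to 6.88 and 4.58 CPM, log2 fold changes of −2.19 and −1.92. *MTUS1*, a microtubule-associated protein, fell from 177.8 and 140.8 CPM to 38.4 and 39.5 CPM, a log2 fold change of −2.03 ± 0.19 (adjusted p = 0.00202, edgeR). The Z325 libraries of each of these 4 genes were below the controls by more than 2-fold. *ARHGAP26*, a GTPase-activating protein, and *MB21D2* fell by 1.96 and 1.85 on the log2 scale. *YY1AP1* fell by 1.83, and 15.4% of its exon bases are shared with a neighbour.

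In the TGF-beta and BMP list 2 of 16 tested were lower and 1 higher (18.75% called, against 5.78% of all tested genes). *TGFBR2*, the type II receptor, had 29.1 and 29.9 CPM in the controls and 11.97 and 11.2 CPM after Z325, and *ID2*, a BMP target that blocks differentiation factors, had 283.8 and 289.1 CPM and then 128.6 and 107.1 CPM. Their log2 fold changes were −1.34 ± 0.27 (adjusted p = 0.0285, edgeR) and −1.27 ± 0.15 (adjusted p = 0.00438, edgeR). *ID2* shares 6.55% of its exon bases with *ID2-AS1*. *ELF3*, an epithelial transcription factor among the epithelial markers, had 194, 186, 44 and 6 counts in the order given above, a log2 fold change of −2.34, with 18.5% of its exon bases shared with its antisense gene. *EPCAM* had a log2 fold change of 0.09.

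Of the 33 genes of the FGF signalling list 20 were listed and 15 tested, and none passed the test. *FGFR2* is not among the genes listed for HCT116, so it could not be examined. *FGFR1* had 263, 212, 112 and 48 counts in the same library order, *FGFR3* had 52, 36, 25 and 6, and *FGFR4* had 88, 111, 36 and 17. The log2 fold changes of *FGFR1*, *FGFR3* and *FGFR4* were −0.68 ± 0.34, −0.81 ± 0.59 and −1.02 ± 0.46, with adjusted p of 0.268, 0.463 and 0.226 from edgeR. They were −0.38, −0.94 and −0.62 without Z325 replicate 1, and −0.98, −0.71 and −1.37 without Z325 replicate 2. Both Z325 libraries were below both controls in 3 of the 4 receptors tested, as in 29.0% of all tested genes. But these genes are rich in GC, and with GC correction the 3 values became −0.33, −0.37 and −0.56. Over the 15 tested members of the FGF list the median was −0.40, and −0.01 (1 call, higher) with GC correction and −0.22 without Z325 replicate 1. By edgeR 2 members had an unadjusted p under 0.05, and DESeq2 called 0.

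Downstream lists gave few calls. The MAPK cascade (15 of 36 members tested), the PI3K, AKT and mTOR list (16 of 35) and the apoptosis list (17 of 47) had 0 calls in edgeR. Of their members 16, 19 and 19 were listed for HCT116, so the 0 calls leave the rest of these pathways unexamined. The medians were −0.24, −0.06 and −0.06 (−0.19, −0.09 and 0.01 with GC correction). Without Z325 replicate 1 they were −0.07, 0.01 and 0.01, without Z325 replicate 2 the PI3K median was −0.28, and without Control 2 the PI3K and apoptosis medians were −0.16 and −0.15. An unadjusted p under 0.05 was found in 2, 5 and 1 members, and DESeq2 called 0, 2 and 1. *CYCS*, cytochrome c, was at 0.09. Of 22 tested genes of ERK output and feedback 2 were higher (9.09%, against 2.83% of all tested genes), among them *AREG*. The feedback inhibitors *SPRY4* and *DUSP4* were at −0.01 and 0.15. Of 21 tested p53 targets *SFN*, an inhibitor of mitotic entry, was the only call (4.76%, against 2.83% of all tested genes higher). It went from 18.1 and 29.2 CPM to 48.3 and 79.4 CPM. *GADD45A*, a stress-induced growth arrest gene, had a log2 fold change of 0.76 ± 0.18 (adjusted p = 0.0516, edgeR) that was called with GC correction (1.14, adjusted p = 0.00547, edgeR).

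Several further lists had 1 call in each direction. The shares called were 10.5% for WNT, 11.1% for cholesterol and 8% for lysosome and autophagy genes, against 5.78% of all tested genes. Of 19 tested WNT pathway genes *FZD6*, a receptor, was higher and *WNT16*, a ligand, lower. With GC correction *FZD6* was not called (0.53, adjusted p = 0.0748, edgeR), and 0 members were higher and 2 lower. Of 18 cholesterol synthesis genes *MSMO1*, a sterol demethylation enzyme, was higher at 0.90, and of 25 lysosome and autophagy genes *ATG12*, an autophagy conjugation protein, was higher and *ATP6V1A*, of the proton pump, lower. The call of *ATG12* was lost with GC correction (0.40, adjusted p = 0.115, edgeR). *PSMD2*, a proteasome base subunit, *ABCF2*, an ABC protein that shares 37.1% of its exon bases with another gene, and *COL12A1*, a collagen, were lower. The fatty acid, Eph and ephrin and housekeeping lists gave 0 calls by edgeR (4, 2 and 2 members at an unadjusted p under 0.05, and 1, 0 and 1 by DESeq2), and the housekeeping median was −0.12 (−0.0069 with GC correction), with *PPIA* at −0.01 and *ACTB* at −0.52 (−0.13 with GC correction).

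Promoter motifs were counted on both strands of the 300-base windows, for 4437 tested genes matched to RefSeq by symbol. The CHR element was present in 15.4% of all 27305 promoters and 10.4% of those of tested genes, and in 19 of 36 promoters of the mitosis list (52.8%). Of the 13 called mitotic genes 7 had it. The CCAAT box (CCAAT) was present in 35.7% of all promoters, 35.9% of tested genes and 69.4% of the mitosis list. The antioxidant response element core was present in 13.6% of all promoters, 14.6% of tested genes and 4 of the 13 matched NRF2 targets (30.8%), and *GCLM* and *ME1* were the called ones.

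Across all called genes the shares of these 3 motifs were closer to those of tested genes than in the lists above. The antioxidant response element core was in 15.8% of promoters of higher and 8.7% of lower genes, the CHR element in 12.5% and 11.2%, and the CCAAT box in 30.9% and 45.3%. The C/EBP-ATF core (TGATGNAAN) was in 2.6% of promoters of higher, 0% of lower and 1.9% of tested genes. In the same order the first E2F form (TTTGGCGC) was in 0%, 3.1% and 1.1%, and the second (TTTCCCGC) in 1.3%, 3.7% and 2.3%. The AP-1 site was in 2.6%, 2.5% and 3.1%, and the cyclic AMP element (TGACGTCA) in 2.0%, 2.5% and 3.2%. The heat shock core (GAANNTTC) was in 5.9%, 6.8% and 4.5%, and the sterol core (TCACNCCAC) in 0%, 1.9% and 1.1%. A match describes the letters of the window only.

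Whether HCT116 and NCI-H716 responded differently was tested in edgeR with a line-by-treatment term fitted to the 8 libraries. Of 7642 genes tested, 5 differed (0.0654%), and 1096 had an unadjusted p under 0.05. The tables of the 2 lines were counted by different methods, so levels are compared only within a line. For *SLC7A11*, *GCLM* and *ME1* the difference in log2 fold change was 0.41 ± 0.22, −0.24 ± 0.23 and −0.08 ± 0.22 (adjusted p = 0.419, 0.667 and 0.952, edgeR), and their log2 fold changes in NCI-H716 were 2.26, 2.05 and 1.35.

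The 5 genes moved in HCT116 with no call in NCI-H716. *DHRS3* had 70.7 and 77.5 CPM and then 13.8 and 6.68 CPM in HCT116 in this joint scaling, and 142.6 and 113.2 CPM and then 132.0 and 141.2 CPM in NCI-H716, a difference of −2.84 ± 0.36 (adjusted p = 0.0163, edgeR). *MTUS1* and *PRKACB* differed by −2.18 and −1.97, with NCI-H716 log2 fold changes of 0.17 and 0.52. *UPP1* differed by 1.97 ± 0.28 (adjusted p = 0.0302, edgeR), at 32.8 and 28.8 CPM in NCI-H716 controls and 30.9 and 29.5 CPM after Z325. *CXXC4*, a WNT inhibitor, had 43 counts over both HCT116 controls and 0 over both Z325 libraries, at least 8.69-fold lower against a floor of 3 counts over the group, and it was not called in HCT116 alone (adjusted p = 0.0662, edgeR). None of the 5 was called without Control 1 of HCT116, without either NCI-H716 control or without Z325 replicate 2 of NCI-H716, when 0 genes were called.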

How the data were processed

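HCT116 (2 Control, 2 Test libraries) was analysed, with the 4 NCI-H716 libraries used only for the interaction. For HCT116 the authors deposited read counts per gene with gene positions and exon lengths. For NCI-H716 the authors deposited RSEM expected counts, TPM and FPKM values per gene; expected counts were rounded to whole numbers, and the deposited TPM and FPKM values were not used in tests. The submitters' processing notes name Bowtie2 2.5.0, featureCounts and hg38, whereas the study's methods describe TrimGalore, STAR and RSEM on GRCh38. Of 28047 lines for HCT116, 4 were broken and left out, and the listing ends on chromosome 9 at base 4587469. How reads shared by overlapping genes were counted is not given in the sources used here.

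Genes passing filterByExpr were fitted in edgeR 4.0.16 (R 4.3.3) with TMM normalisation (factors 0.956 to 1.038) and its quasi-likelihood test. No replicate block was used. Benjamini-Hochberg adjustment ran over all genes tested. The common biological coefficient of variation was 0.245. CPM are TMM-normalised. P-values measure the spread between these 4 libraries. Gene types came from GENCODE 44 on hg38. Exon GC content was taken over all GENCODE transcripts of a gene, so exons shared by transcripts counted repeatedly. Exon overlap was computed among the genes listed for HCT116 from their listed exon positions. Promoters came from RefSeq (GRCh38.p14). The members and gene lists were chosen with earlier results of these data known.

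Named genes were the 12 largest rises and 12 largest falls (adjusted p under 0.05, a symbol, protein-coding or lncRNA, mean of at least 10 CPM, groups not overlapping), up to 4 called members of each list by smallest p or, with none called, the 2 most abundant, *FGFR1*, *FGFR3*, *FGFR4* and *GADD45A*, and up to 6 interaction genes. A few selected genes are not reported here. The alternatives tried were library-size scaling, relative log expression factors, DESeq2 1.42.0, a minimum of 10 counts, no filter, limma 3.58.1 on log2(FPKM + 1) or log2(FPKM + 0.1) computed from the counts, a replicate block, thinning to 3434620 counts, all 8 libraries in 1 fit, a fold threshold, leaving out each library, and GC-corrected offsets (added after the data were seen). In data simulated over 6491 genes with 200 genes changed, every gene was given the common coefficient of variation. There edgeR recovered 86.5% at 4-fold with 4 false calls and 9.0% at 2-fold with 0. Genes with a smaller or larger variation were not simulated, so these shares are not the power in the HCT116 data. Python 3.11.15, pandas 2.3.3, scipy 1.17.1 and matplotlib 3.10.9 were used.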

Additional observations from a re-analysis of the deposited data

Results flagged for a closer look

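By the interaction of treatment and cell line in edgeR, 5 genes responded differently to Z325 in HCT116 and NCI-H716. The difference in log2 fold change, HCT116 minus NCI-H716, was −2.18 for *MTUS1* (−2.37 to −1.98 when each library was left out), −2.84 for *DHRS3* (−3.66 to −2.54), −1.97 for *PRKACB* (−2.23 to −1.79), 1.97 for *UPP1* (1.76 to 2.20) and −7.42 for *CXXC4* (−7.68 to −6.99), whose HCT116 levels were at most 2.01 CPM.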

How the results depend on the processing

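The 184 higher and 191 lower HCT116 genes became 403 and 364 by DESeq2, 29 and 18 by limma on log2(FPKM + 1), 22 and 15 with a pseudocount of 0.1, and 73 and 108 with a log2 change over 1 in addition. Lower genes numbered 345 with at least 10 counts in every library and 423 with no filter, where the higher were 270 and 260, so the share of higher calls fell from 49.1% to 38.1% with no filter, and it was 61.7% and 59.5% in the limma fits. Leaving out a library gave 15 to 514 higher and 6 to 562 lower. With the replicate block there were 177 higher and 204 lower, 333 of them among the 375. The replicate numbers did not pair the libraries (correlation of replicate differences −0.03). Of 77 named genes with a call, 24 and 20 kept it by limma, 24 and 18 without Control replicate 1 or 2, and 68 or more under every other alternative in which they had a value.

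The 5 interaction genes became 137 by DESeq2, 26 with at least 10 counts, 106 with no filter, 12 with the replicate block and 0 to 61 without a library. Directions reversed only in named genes without a call. *CD8A* reached −0.037 (limma, 0.1) and −0.27 (replicate block) and *PPIA* 0.027 (relative log expression factors and DESeq2), 0.043 (GC), 0.022 (thinned) and 0.013 (8 libraries). Leaving out a library gave −2.15 to 1.19 for *CD8A*, −0.23 to 0.41 for *H1-2*, −0.085 to 0.061 for *PPIA* and −0.28 to 0.19 for *NRAS*. The causes were not tested. With every library thinned to 3434620 counts there were 245 higher and 206 lower. In the simulation, which gave every gene the common coefficient of variation, 9.0% of 2-fold changes were recovered with 2 libraries a group.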
